A study of Homo sapiens with 9 samples.

Results

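Expression of the aryl hydrocarbon receptor (AHR), its partner ARNT and 5 of their target genes was examined in MDA-MB-231 cells, an established human breast adenocarcinoma line. The genes were chosen by symbol, through the Ensembl identifiers of the count table, and are CYP1A1, CYP1B1, ALDH3A1, AHRR, TIPARP, AHR and ARNT. They are 7 of the 24344 genes of the table, and all 7 passed the filter on low counts. The cells had 48 h of exposure to Compound Kushen Injection (CKI, made from the herbs Kushen and Baituling), to Kushen injection alone or to Baituling injection alone. CKI was used at 2.0 mg/mL of total alkaloids and the single-herb injections at the equivalent dilution. Each treatment had 3 libraries of total RNA, described as biological replicates, so that 9 libraries in 3 groups were compared. Separate cultures are not described, and p-values measure only the spread between these libraries, which may be technical. All cells were of this single line in the same medium, no genetic change is given in the labels, and untreated libraries were not analysed here. The differences below are therefore between injections and give no direction against untreated cells.

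AHR is a transcription factor of the bHLH-PAS family that is held in the cytoplasm by HSP90 chaperones until a small planar molecule binds it. Bound AHR enters the nucleus, pairs with ARNT and attaches to short DNA elements in front of its target genes. CYP1A1 and CYP1B1, the monooxygenases that oxidise polycyclic compounds and oestrogens, are its classical targets, while AHRR and TIPARP are targets that act back on the receptor as repressors. Plant compounds are a known source of AHR ligands.

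The DNA upstream of the 7 genes was searched for the response element of AHR, since the differences between CYP1A1, CYP1B1 and the repressors are described below. The letters TNGCGTG were sought on both strands in the 2000 bases before the start of the canonical transcript (GENCODE annotation, build GRCh37). The core GCGTG is also a form of the hypoxia response element. CYP1A1 held 5 matches and CYP1B1 held 4, whereas 34.8% of the 14090 tested genes that could be searched held any. Only 0.0568% of these genes held at least 5 and 0.241% held at least 4. ARNT held 2 matches (7.81% of genes held as many), and AHRR, TIPARP and ALDH3A1 held 1 each. AHR had no match in this window. The G and C content of the window was 62.2% for CYP1A1, 61.1% for CYP1B1 and 61.8% for AHRR, against a median of 50.3%. A match is a description of the letters only.

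**Figure D1:**
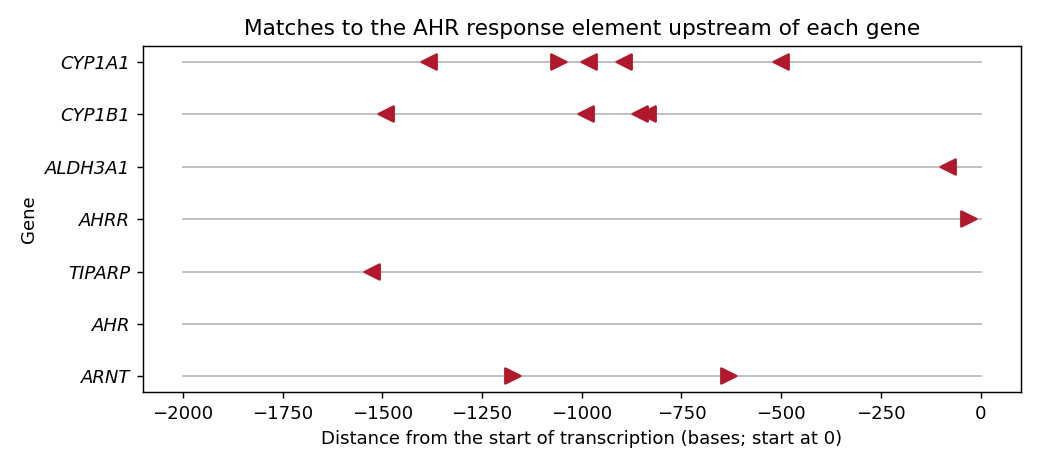
Positions of TNGCGTG matches in the 2000 bases upstream of each gene, with the distance from the start of transcription in bases on the horizontal axis and 1 line per gene. Triangles point right for a match on the strand of the gene and left for a match on the other strand, with 5 on CYP1A1, 4 on CYP1B1 and none on AHR.

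The stretches of 300 bases with the most matches are shown for CYP1A1 and CYP1B1, and the stretch with the only match is shown for AHRR. They are printed from 5′ to 3′ on the strand of the gene, and capitals mark TNGCGTG or its reverse complement CACGCNA. The CYP1A1 stretch (GRCh37, chr15:75018696-75018995, minus strand) lies 1126 to 827 bases before the start site and holds 3 matches. The CYP1B1 stretch (chr2:38304055-38304354, minus strand) lies 1061 to 762 bases before its start site and also holds 3. The AHRR stretch (chr5:321529-321828, plus strand) ends at the base before the start site.
CYP1A1: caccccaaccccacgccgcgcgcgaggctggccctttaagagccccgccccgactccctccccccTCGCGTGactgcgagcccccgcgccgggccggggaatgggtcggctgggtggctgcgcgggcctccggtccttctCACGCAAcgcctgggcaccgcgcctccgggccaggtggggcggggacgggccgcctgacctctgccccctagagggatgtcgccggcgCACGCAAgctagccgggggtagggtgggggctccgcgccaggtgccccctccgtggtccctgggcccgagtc
CYP1B1: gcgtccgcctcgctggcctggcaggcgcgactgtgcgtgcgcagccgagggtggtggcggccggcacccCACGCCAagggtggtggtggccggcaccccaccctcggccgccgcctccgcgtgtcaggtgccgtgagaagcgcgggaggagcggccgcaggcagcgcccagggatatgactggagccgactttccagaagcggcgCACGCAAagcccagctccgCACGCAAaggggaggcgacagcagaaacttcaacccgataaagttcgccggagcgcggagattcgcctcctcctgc
AHRR: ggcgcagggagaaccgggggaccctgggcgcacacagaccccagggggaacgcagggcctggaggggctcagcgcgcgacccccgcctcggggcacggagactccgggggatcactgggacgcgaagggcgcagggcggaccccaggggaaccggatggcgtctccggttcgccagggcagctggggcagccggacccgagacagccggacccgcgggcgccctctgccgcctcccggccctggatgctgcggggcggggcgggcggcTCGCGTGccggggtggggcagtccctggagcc

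The total count was 20144628 to 23782071 per library. The CKI libraries had counts for 17555 to 17786 genes, those of Kushen for 17017 to 17281 and those of Baituling for 16259 to 16379. The scaling factor (TMM) was also highest in CKI and lowest in Baituling, and with library totals in its place the median over the whole table shifted by 0.08 (log2) between CKI and Kushen, 0.29 between CKI and Baituling and 0.21 between Kushen and Baituling. The part of this shift in the results below is given where it changes a direction. Markers of the line were checked. CD44 had at least 14306 counts and EGFR at least 4623 in every library, while the oestrogen receptor gene ESR1 had at most 3 and the progesterone receptor gene PGR at most 4. VIM, which encodes the mesenchymal filament protein vimentin, was present in every library but ranged from 336.5 to 2116 CPM (counts brought to a common library size with TMM). VIM was called lower in CKI and in Kushen than in Baituling (log2 fold change -2.56 ± 0.04 and -1.82 ± 0.04), as were KRT18 and CDH1 of the same marker list, and the part of this in the results below was not tested. The leukocyte marker PTPRC had at most 9 counts. Other genes of the marker list were less clear. ERBB2 and EPCAM, listed as low in this line, had 1412 to 2155 and 162 to 280 counts. The collagen gene COL1A1, listed as a marker of other cells, had 285 to 963 counts. COL1A1 was called higher in CKI than in Baituling (log2 fold change 1.13 ± 0.09). In these bulk libraries fewer cells that express a gene and less of its RNA per cell cannot be told apart.

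CYP1A1 was the gene of the group that differed most between treatments. CYP1A1 (chromosome 15, 75011883 to 75017877, minus strand) was measured at 158, 155 and 154 CPM in the CKI libraries. It was at 62.1, 59.0 and 56.6 CPM in the Kushen libraries. It was at 2.39, 2.36 and 2.48 CPM in the Baituling libraries, on 43 to 49 counts. The 3 treatments formed separate bands without overlap, with a coefficient of variation between 1.25% and 4.61%. In Baituling it was 2.72%, less than counting error alone would give on so few counts. The SE values against Baituling given below may therefore be too small. CYP1A1 was 2.63-fold higher in CKI than in Kushen (log2 fold change 1.39 ± 0.05 (SE), adjusted p = 3.79e-14). It was 24.5-fold higher in Kushen than in Baituling (4.62 ± 0.08, adjusted p = 9.52e-19) and 64.5-fold higher in CKI than in Baituling (6.01 ± 0.07, adjusted p = 1.54e-21). Among the 14195 genes tested, its rise was the 8th largest in CKI against Baituling, the 9th largest in Kushen against Baituling and the 112th largest in CKI against Kushen. CYP1A2, the liver enzyme encoded beside CYP1A1 on chromosome 15, had 1, 1 and 2 counts in CKI, 0, 0 and 1 in Kushen and none in Baituling, so no difference could be measured. A count of 0 allows up to 0.118 to 0.166 CPM here, which is the value of 3 counts in a library and covers counting error only.

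CYP1B1 rose in the same order over a smaller range and from a higher level. CYP1B1 (chromosome 2, 38294116 to 38337044, minus strand) was at 490.2, 479 and 494 CPM in CKI. It was at 349, 353 and 353 CPM in Kushen and at 136, 141 and 148 CPM in Baituling. Again the libraries of the 3 treatments did not overlap. The step from Kushen up to CKI was 0.47 ± 0.04 on the log2 scale (adjusted p = 3.74e-08), which passed the test but not the fold threshold of 1. Against Baituling it was 3.44-fold higher in CKI (1.78 ± 0.04, adjusted p = 1.29e-17) and 2.48-fold higher in Kushen (1.31 ± 0.04, adjusted p = 1.34e-15). The libraries were unstranded, and 11.2% of the exon bases of CYP1B1 are shared with the antisense gene CYP1B1-AS1, which had 151 to 178 counts in CKI, between 52 and 72 in Kushen and 8 to 10 in Baituling. Its part in the CYP1B1 counts, which were at least 2579 per library, was not tested.

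**Figure D2:**
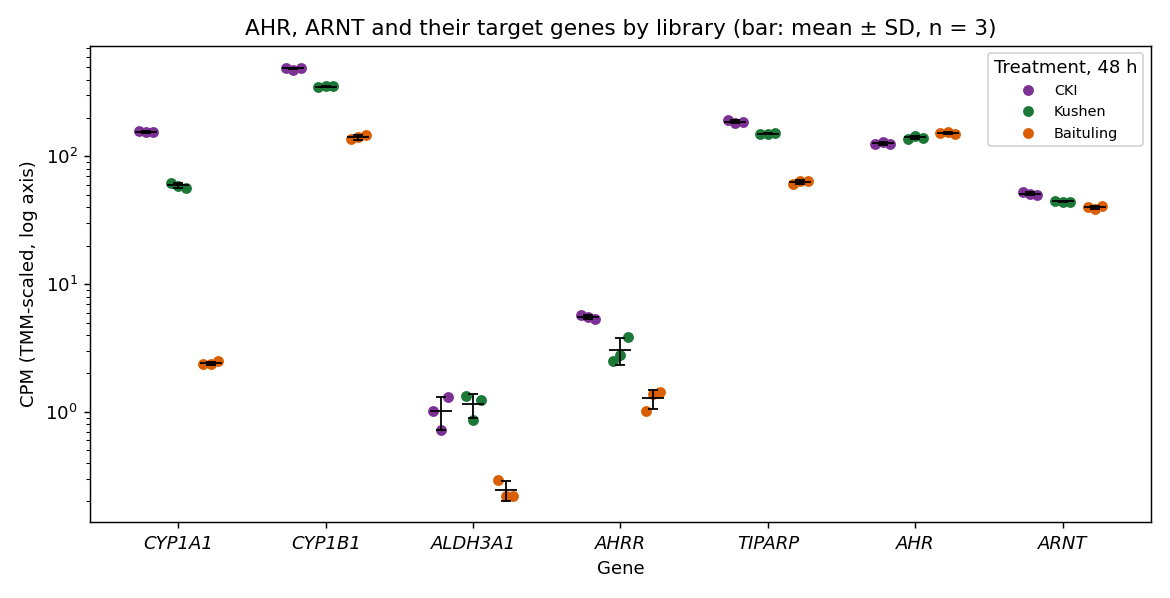
TMM-scaled CPM (log axis) of the 7 genes in each of the 9 libraries. Points are libraries coloured by treatment and bars give mean ± SD (n = 3), and CYP1A1 shows the widest separation, from about 156 CPM in CKI to 2.41 CPM in Baituling, while AHR and ARNT stay within a narrow range.

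ALDH3A1, an aldehyde dehydrogenase that also belongs to the classical AHR targets, was near the limit of detection. ALDH3A1 (chromosome 17, 19641297 to 19652256, minus strand) had 26, 18 and 33 counts in the CKI libraries, 33, 21 and 28 in the Kushen libraries and 6, 4 and 4 in the Baituling libraries. Counts in CKI and Kushen overlapped, and those in Baituling lay below all others. The log2 fold change was 2.02 ± 0.40 in CKI against Baituling (adjusted p = 0.000147) and 2.19 ± 0.40 in Kushen against Baituling (adjusted p = 5.95e-05). It was -0.17 ± 0.28 in CKI against Kushen (adjusted p = 0.665), which lies more than 5 SE below the step of 1.39 seen for CYP1A1, although the difference between the genes was not tested. The gene passed the filter only through its counts in CKI and Kushen.

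The feedback repressors were ordered like the CYP1 genes. AHRR, which competes with AHR for ARNT, was rare. AHRR (chromosome 5, 321829 to 438406, plus strand) was at 5.69, 5.56 and 5.37 CPM in CKI. It was at 2.49, 2.79 and 3.86 CPM in Kushen and at 1.02, 1.37 and 1.44 CPM in Baituling, on 21 to 26 counts. The groups did not overlap, although Kushen replicate 3 stood apart from the other Kushen libraries and the coefficient of variation reached 23.6%. AHRR was 4.35-fold higher in CKI (log2 fold change 2.12 ± 0.19, adjusted p = 5.95e-09) and 2.38-fold higher in Kushen (1.25 ± 0.21, adjusted p = 3.05e-05) than in Baituling. In CKI against Kushen it differed by 0.87 ± 0.16 (adjusted p = 0.000217), below the fold threshold, but by 1.06 without Kushen replicate 3, which is past it. The readthrough gene PDCD6-AHRR shares 58.7% of the exon bases of AHRR and has no counts of its own here, so reads of the pair are uncertain.

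TIPARP, which attaches ADP-ribose to AHR and lowers its activity, was abundant and precise. TIPARP (chromosome 3, 156391024 to 156424559, plus strand) was at 193, 183 and 184 CPM in CKI. It was at 151, 149 and 152 CPM in Kushen and at 60.7, 64.4 and 64.4 CPM in Baituling. The groups did not overlap. It was 1.24-fold higher in CKI than in Kushen (log2 fold change 0.31 ± 0.04, adjusted p = 8.97e-06). It was 2.96-fold higher in CKI (1.56 ± 0.04, adjusted p = 1.36e-16) and 2.38-fold higher in Kushen (1.25 ± 0.04, adjusted p = 5.26e-15) than in Baituling.

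The receptor itself changed little. AHR (chromosome 7, 16955983 to 17385776, plus strand) was at 124, 129 and 126 CPM in CKI, at 137, 146 and 140 CPM in Kushen and at 152, 154 and 151 CPM in Baituling. Its libraries thus lay in the reverse order of the targets, without overlap. The log2 fold change was -0.16 ± 0.04 for CKI over Kushen (adjusted p = 0.00496), -0.27 ± 0.04 in CKI against Baituling (adjusted p = 7.37e-06) and -0.11 ± 0.04 in Kushen against Baituling (adjusted p = 0.0189). These directions depended on the scaling. With library totals the 3 values were -0.08 (adjusted p = 0.108), 0.02 (adjusted p = 0.704) and 0.10 (adjusted p = 0.0324), so that neither comparison with Baituling kept its sign. A gene model on the same strand shares 29.5% of the exon bases of AHR in the annotation and was not analysed here, so reads of the pair are uncertain.

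ARNT, the partner that AHR needs to bind DNA, moved in the direction of the targets over a smaller range. ARNT (chromosome 1, 150782189 to 150849184, minus strand) was at 52.5, 50.5 and 50.2 CPM in CKI, at 45.0, 44.4 and 43.9 CPM in Kushen and at 40.4, 38.9 and 41.0 CPM in Baituling. The groups did not overlap. The log2 difference was 0.20 ± 0.05 between CKI and Kushen (adjusted p = 0.00283), 0.35 ± 0.05 between CKI and Baituling (adjusted p = 3.85e-06) and 0.15 ± 0.05 between Kushen and Baituling (adjusted p = 0.0156). With library totals the differences from Baituling were 0.63 for CKI and 0.36 for Kushen. Under either scaling they were smaller than those of CYP1A1.

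Calls needed an adjusted p below 0.05 together with a log2 fold change beyond 1 in either direction. In CKI against Kushen 1 of the 7 genes was called higher (CYP1A1) and none lower, where 1.7% of all genes tested were called higher, 0.197% lower and 1.9% in either direction. In CKI against Baituling 5 of 7 were called higher and none lower, against 11.2% of all genes higher, 7.91% lower and 19.1% in total. In Kushen against Baituling 5 of 7 were called higher and none lower, against 8.5% higher, 6.73% lower and 15.2% in total. Both counts against Baituling include ALDH3A1, which entered the test only through the groups where it was high, and under a filter of 10 counts in each of the 9 libraries ALDH3A1 was not tested and 4 genes were called each time. The genes called against Baituling were CYP1A1, CYP1B1, ALDH3A1, AHRR and TIPARP both times, and these comparisons share the Baituling libraries. CYP1A1 was also the only one of the 7 called higher at each step from Baituling to Kushen and from Kushen to CKI, as were 0.5% of all genes.

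By the adjusted p alone, 5 of the 7 genes were higher and 1 lower in CKI against Kushen, where 19.6% of all genes were higher, 20.2% lower and 39.8% passed. In CKI against Baituling 6 were higher and 1 lower, where 39.1% of all genes were higher, 37% lower and 76.1% passed. The counts were again 6 and 1 in Kushen against Baituling, where 35.6% of all genes were higher, 36.1% lower and 71.6% passed. So many genes passed this weaker rule that the count of lower members says little.

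The libraries of CKI and Kushen did not overlap for 6 of the 7 genes (5 higher and 1 lower), where 25.2% of all genes lay higher without overlap, 24.2% lower and 49.5% in total. Between CKI and Baituling none of the 7 overlapped (6 higher and 1 lower), where the shares of all genes were 40.3%, 38% and 78.3%. Between Kushen and Baituling the 7 genes gave the same counts, where the shares were 36.4%, 36.7% and 73.1%. For 5 of the 7 genes (CYP1A1, CYP1B1, AHRR, TIPARP and ARNT) all libraries of CKI lay above all of Kushen, and those above all of Baituling, an order found for 10.2% of all genes tested.

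**Figure D3:**
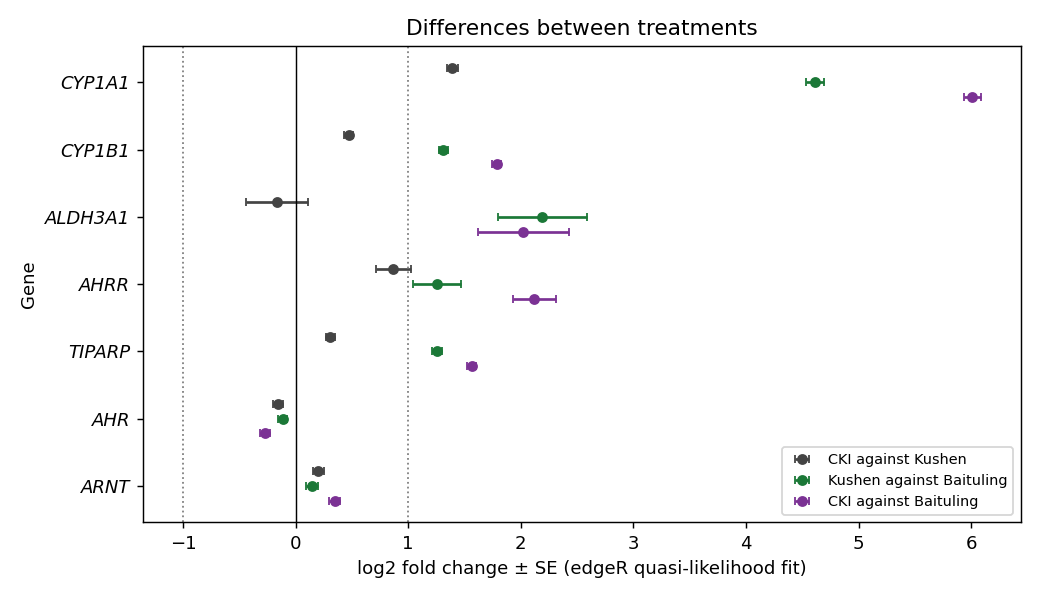
Log2 fold change ± SE of the 7 genes in the 3 comparisons (horizontal axis, edgeR quasi-likelihood fit), with dotted lines at the fold threshold of -1 and 1. CYP1A1 lies at 4.62 and 6.01 against Baituling, the other targets lie between 1.25 and 2.19, and AHR and ARNT lie near 0.

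CYP1A1 was then set against CYP1B1 and the repressors within each library, because a ratio of 2 genes in the same library does not depend on how libraries are scaled. Levels are compared as counts per kilobase of exon, with 3361 bases for CYP1A1, 6023 for CYP1B1, 9480 for AHRR and 4800 for TIPARP. In Baituling, CYP1A1 stood at 0.0305 ± 0.000917 of the level of CYP1B1 (SD, n = 3), on 43 to 49 counts of CYP1A1. In Kushen the ratio was 0.302 ± 0.0157 and in CKI 0.572 ± 0.0113. CYP1B1 therefore remained the more abundant transcript per length under each injection, and the gap was narrowest in CKI. The ratio was 18.8-fold higher in CKI than in Baituling, 9.88-fold higher in Kushen than in Baituling and 1.90-fold higher in CKI than in Kushen.

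The ratio of CYP1A1 to TIPARP per kilobase crossed 1. It was 0.0545 ± 0.00203 in Baituling, 0.562 ± 0.0269 in Kushen and 1.19 ± 0.0206 in CKI (SD, n = 3), so that CYP1A1 was the rarer transcript in Baituling and Kushen and the more abundant in CKI. It was 21.9-fold higher in CKI than in Baituling and 2.12-fold higher in CKI than in Kushen. Against AHRR the ratio was 5.44 ± 0.990 in Baituling, 57.1 ± 14.6 in Kushen and 79.3 ± 1.48 in CKI. On the log2 scale its difference was 0.51 ± 0.23 (SE) between CKI and Kushen, 3.88 ± 0.15 between CKI and Baituling and 3.37 ± 0.27 between Kushen and Baituling. Without Kushen replicate 3 the first of these was 0.29. Of the 9 differences in ratio each had a p of 0.1 in the exact permutation test (two-sided, n = 3 against 3), which is the smallest p this design allows, and 0.1 after adjustment over the 9 tests. None could therefore pass a threshold of 0.05, although no ratio overlapped between groups.

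**Figure D4:**
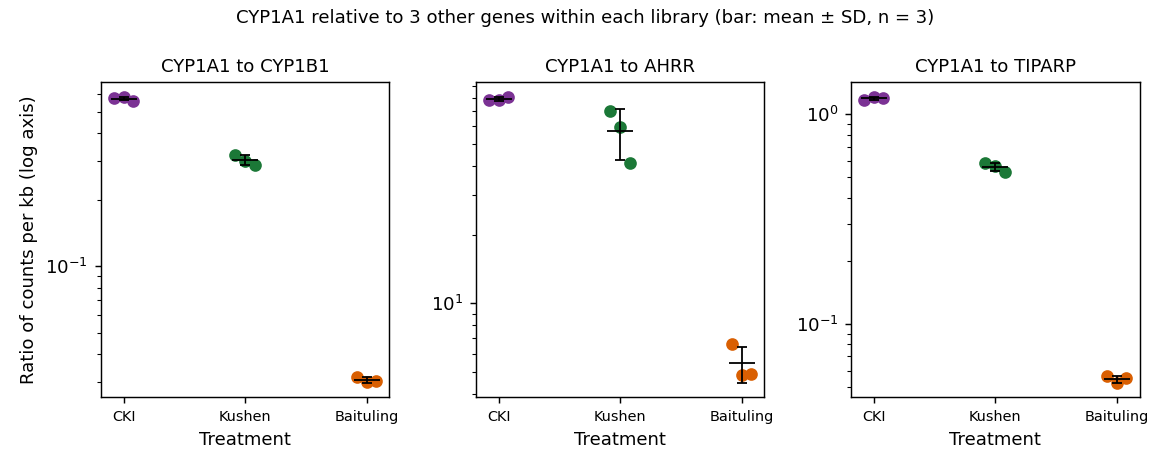
Ratio of CYP1A1 to CYP1B1, AHRR and TIPARP in counts per kilobase of exon (log axes), for each library by treatment, with mean ± SD (n = 3). In each panel CKI is highest and Baituling lowest, and the ratio to TIPARP exceeds 1 in CKI only.

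The other genes of the pathway were examined through 7 short lists of 48 genes, the 7 above included. Of the remaining 41 genes, 32 passed the filter on low counts. In CKI against Kushen 2 of the 32 were called higher and none lower (1.7% and 0.197% of all genes), with a median log2 fold change of 0.24 against 0.01 for all genes. In CKI against Baituling 5 were called higher and 2 lower (11.2% and 7.91% of all genes, median 0.00 against 0.03). In Kushen against Baituling 2 were called higher and 4 lower (8.5% and 6.73% of all genes, median -0.15 against 0.02), so that the counts against Baituling lay near the shares of all genes. The lower counts against Baituling include SERPINB2, and the higher count in CKI against Baituling includes TDO2. Both genes passed the filter mainly through groups where they were high. At the adjusted p alone, 14 of the 32 were higher and 6 lower in CKI against Kushen, where 19.6% and 20.2% of all genes were. The corresponding counts were 14 and 13 in CKI against Baituling (39.1% and 37% of all genes), and 9 and 16 in Kushen against Baituling (35.6% and 36.1% of all genes).

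The size of the differences in chaperones of the receptor complex depended on the scaling, while HSP90AB1 kept its direction in every comparison. HSP90AB1 was at 2050 ± 66.7 CPM in the CKI libraries, 2481 ± 16.1 in those of Kushen and 3083 ± 30.3 in those of Baituling (SD, n = 3), a log2 fold change of -0.59 in CKI against Baituling (adjusted p = 2.22e-11) that was -0.30 with library totals. The co-chaperone PTGES3 changed by -0.31 ± 0.04 and HSP90AA1 by -0.15 ± 0.04 in CKI against Baituling. With library totals these values were -0.02 (adjusted p = 0.594) and 0.13 (adjusted p = 0.00168). No gene of this list was called in any comparison.

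Among xenobiotic enzymes, the monooxygenase CYP2S1 followed CYP1A1 over a smaller range. CYP2S1 was at 8.21 ± 0.592 CPM under CKI, 5.21 ± 0.616 under Kushen and 3.12 ± 0.431 under Baituling. It was called only in CKI against Baituling (log2 fold change 1.40 ± 0.14, adjusted p = 1.63e-08). NQO1, a quinone reductase that AHR and NRF2 are both known to induce, was ordered differently. NQO1 was highest in Kushen, at 231 ± 4.56 CPM, against 192 ± 9.27 in CKI and 119 ± 1.30 in Baituling. NQO1 gave a log2 fold change of -0.27 ± 0.04 for CKI over Kushen (adjusted p = 6.38e-05) and was higher in Kushen than in Baituling by 0.96 ± 0.04 (adjusted p = 2.44e-13), which became 1.17 with library totals and 1.03 with upper quartile scaling. UGT1A1, UGT1A6, GSTA1 and GSTA2 had at most 4 counts in any library and were not tested. The UGT1A genes also share exons.

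Of the genes reported as AHR targets in other settings, 8 of 9 passed the adjusted p and were higher in CKI than in Kushen, against 19.6% of all genes. The group split against Baituling. By the adjusted p alone, 6 were higher and 3 lower in CKI than in Baituling (39.1% and 37% of all genes). In Kushen against Baituling 2 were higher and 6 lower (35.6% and 36.1% of all genes), so that most ran opposite to CYP1A1 there. ABCG2, a drug efflux pump, was ordered like CYP1A1 at 17.5 ± 0.317 CPM under CKI, 11.9 ± 0.929 under Kushen and 3.09 ± 0.192 under Baituling, and was called in each comparison with Baituling (adjusted p = 4.32e-14 and 6.37e-12). HES1, a transcriptional repressor that acts within the Notch pathway, was at 63.1 ± 5.23 CPM under CKI, 16.6 ± 3.63 under Kushen and 52.8 ± 6.47 under Baituling. PTGS2, the inducible cyclooxygenase, was at 9.20 ± 1.07, 2.45 ± 0.198 and 7.35 ± 0.710 CPM in the same order of groups. HES1 and PTGS2 were the 2 list genes called in CKI against Kushen (1.93 ± 0.11 and 1.91 ± 0.13) and were called lower in Kushen than in Baituling (-1.67 ± 0.11 and -1.58 ± 0.14), unlike CYP1A1. SERPINB2 was called lower in CKI and in Kushen than in Baituling (-1.97 ± 0.52 and -3.31 ± 0.65), on 10, 8 and 4 counts in CKI, 0, 3 and 5 in Kushen and 8, 25 and 32 in Baituling. Its CKI and Baituling libraries thus overlapped, and with single libraries left out the values ranged from -2.41 to -1.55 and from -4.11 to -2.72. Only CKI replicate 1 and Baituling replicates 2 and 3 reached 10 counts. SERPINB2 therefore passed the filter on low counts mainly through Baituling, where it was high.

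Relatives and coregulators of the receptor complex showed mostly small differences. HIF1A, which shares ARNT with AHR, was highest in Kushen at 528 ± 9.96 CPM, against 322 ± 5.72 in CKI and 373 ± 4.26 in Baituling. The log2 fold change of CKI over Kushen was -0.71 ± 0.04 (adjusted p = 8.05e-11). ARNT2, the paralogue of ARNT, was at 37.7 ± 1.23 CPM under CKI, 31.5 ± 1.06 under Kushen and 58.8 ± 2.88 under Baituling. For EPAS1 and SIM2 no comparison but Kushen against Baituling for EPAS1 (-0.16 ± 0.05, adjusted p = 0.00822) passed the test, and that value was 0.048 with library totals. Among 9 coregulators, the coactivator NCOA3 was the only one called, higher in CKI than in Baituling by 1.19 ± 0.06 (adjusted p = 4.25e-13). NCOA1, NCOR1 and NRIP1 differed by 0.61 ± 0.06, 0.63 ± 0.06 and 0.65 ± 0.11 in the same comparison, below the fold threshold.

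The kynurenine pathway makes a ligand of AHR from tryptophan, and several of its enzymes had few counts. Of its enzymes, IDO1 had at most 15 counts in any library, IDO2 at most 1 and KMO at most 2, and they were not tested. TDO2 had 13 to 31 counts under CKI, 10 to 13 under Kushen and 5 to 6 under Baituling, and was called in CKI against Baituling (log2 fold change 1.72 ± 0.41, adjusted p = 0.00098). Like ALDH3A1 it passed the filter on low counts only through CKI and Kushen, where it was high. IL4I1, an amino acid oxidase, was lower in CKI and in Kushen than in Baituling (-2.03 ± 0.36 and -2.45 ± 0.39). It had 26 to 45 counts in Baituling, but only 8, 12 and 14 in CKI and 4, 15 and 5 in Kushen. Under the filter of 10 counts in every library IL4I1 was not tested. KYNU (180 to 262 counts) and AFMID (476 to 633 counts) were better measured and were not called in any comparison.

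**Figure D5:**
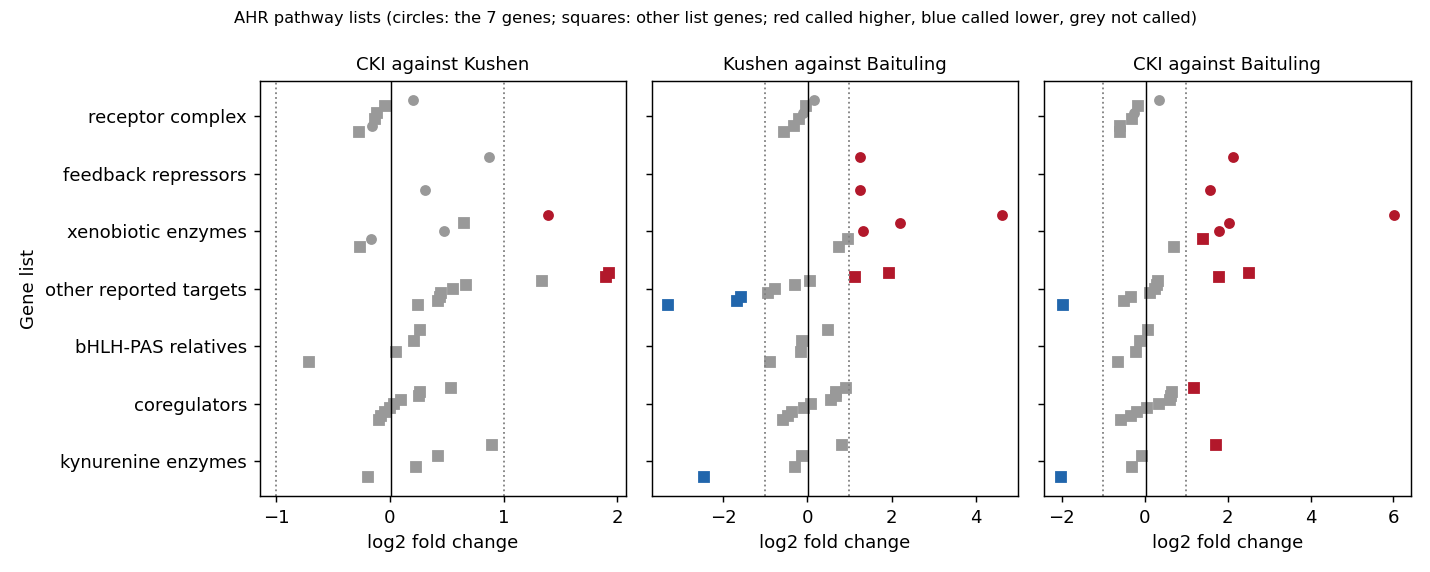
Log2 fold changes (horizontal axis) of the tested genes of the 7 lists in the 3 comparisons, with circles for the 7 genes of the group, squares for other list genes, red for genes called higher and blue for genes called lower. The solid line is the median of all genes and dotted lines the fold threshold, and CYP1A1 is the circle farthest to the right in the comparisons with Baituling, at 4.62 and 6.01.

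The genes whose pattern lay closest to CYP1A1 were sought among 12065 genes, by the root mean square difference of log2 CPM over the 9 libraries after centring each gene. The 5 closest were AKR1B10 (0.463), AKR1C1 (0.728), AKR1C2 (0.760), LUM (0.863) and H1-2 (0.899). AKR1B10, AKR1C1 and AKR1C2 are aldo-keto reductases, and AKR1C1 and AKR1C2 are near-identical, so their counts are uncertain where reads could be split between them. AKR1B10 was at 18.45 ± 0.943 CPM under CKI, 9.87 ± 1.17 under Kushen and 0.490 ± 0.195 under Baituling. AKR1C2 and LUM were also rare under Baituling, at 0.584 ± 0.327 and 0.348 ± 0.0837 CPM. For AKR1B10, AKR1C2 and LUM the distance from Baituling therefore rests on few counts. Of the genes of the group itself, AHRR ranked 166th by this measure, CYP1B1 210th, TIPARP 270th, ARNT 3515th and AHR 7634th, and each of them had a smaller range between treatments than CYP1A1.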

How the data were processed

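Total RNA of MDA-MB-231 cells was sequenced unstranded with paired ends. The authors trimmed reads with Trim Galore 0.3.7, aligned them with STAR 2.5.3a to hg19 (the assembly also named GRCh37) and deposited raw counts per gene. The counting program, annotation and handling of ambiguous reads are not given in the sources used here. Of 24566 deposited rows, 222 repeated an Ensembl gene with identical counts and were dropped, which left 24344 genes. Columns were assigned to libraries by treatment initial and replicate number.

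From these counts, genes were filtered with filterByExpr of edgeR 4.0.16 in R 4.3.3 (minimum count 10, minimum total 15), which left 14195, and scaled by TMM. All 9 libraries entered the quasi-likelihood test, with treatment as the sole factor. Two-sided p-values were adjusted by the Benjamini-Hochberg method over all genes tested, and each SE is the log2 fold change divided by the root of the F statistic. Ratios within libraries were compared by exact permutation tests in SciPy 1.17.1. Gene positions, exon lengths and upstream sequence came from GENCODE version 44 on GRCh37. The fit was tested on simulated data with known changes. Chi-square per gene between replicates was 1.70 to 6.85, so no pair agreed within sampling noise.

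The 7 genes, the pathway lists and the tests were chosen with earlier results of these data known. Besides the 7 genes, up to 4 tested genes per list with the largest absolute log2 fold change in any comparison were named, with CYP1A2, list genes near 0 counts and the 5 genes closest to CYP1A1 (mean log2 CPM not below 1). Some genes that this rule or the marker list held are not reported here by name. Alternatives covered scaling, filter, DESeq2 1.42.0, samples in the fit, repeated rows, a replicate block and leaving out each library.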

Additional observations from a re-analysis of the deposited data

How the results depend on the processing

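For the 7 genes, 371 of 375 values recomputed under the alternatives kept their direction and side of the threshold. The exceptions were AHR with library totals (0.017 in CKI against Baituling, 0.098 in Kushen against Baituling), ALDH3A1 in CKI against Kushen without CKI replicate 2 (0.023, with a range of -0.39 to 0.023 when single libraries were left out) and AHRR in CKI against Kushen without Kushen replicate 3 (1.06, past the threshold). Without that library 2 of the 7 genes were called in CKI against Kushen, and leaving out each library gave 1 to 2. All 81 recomputed ratio differences kept their direction, but most could not do otherwise. A replicate block or another gene length leaves such a difference unchanged. Since no ratio overlapped between groups, leaving out a library cannot turn its direction either. The difference of CYP1A1 to AHRR in CKI against Kushen ranged from 0.29 to 0.68 when single libraries were left out. Requiring at least 10 counts in every library gave 102, 1808 and 1415 called genes over the table for the 3 comparisons (CKI with Kushen, CKI with Baituling, Kushen with Baituling), in place of 270, 2715 and 2162, and 4 in place of 7 called list genes in CKI against Baituling, since fewer genes were tested. ALDH3A1 was not tested under that filter. The median shift under library totals is given in the report.

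List genes with small differences changed sign. With library totals in CKI against Kushen these were NCOA1 (0.00013) and NCOR1 (0.030). With library totals in CKI against Baituling they were HSP90AA1 (0.13), HIF1A (0.077), EPAS1 (0.18) and KYNU (0.23, and 0.0091 with upper quartile scaling). There HSP90AA1 passed the adjusted p in opposite directions, at -0.15 with TMM (adjusted p = 0.000908) and 0.13 with library totals (adjusted p = 0.00168). HIF1A passed it with TMM (-0.21, adjusted p = 5.84e-05) but not with library totals (adjusted p = 0.0652). With library totals in Kushen against Baituling the genes that turned were PTGES3 (0.014), HSP90AA1 (0.19), SIM2 (0.082), EPAS1 (0.048) and AFMID (0.094). HSP90AA1 in Kushen against Baituling also changed sign with upper quartile scaling (0.043), with at least 10 counts in every library (0.0063) and without Kushen replicate 3 (0.0079, range -0.043 to 0.0079). Leaving out single libraries turned NRIP1 (-0.023, without Kushen replicate 3, range -0.023 to 0.19) in CKI against Kushen, and SIM2 (-0.040, without CKI replicate 3, range -0.040 to 0.21) in CKI against Baituling. NQO1 and NCOA3 (1.14 with library totals) in Kushen against Baituling and TDO2 in CKI against Kushen (1.19 without CKI replicate 3) passed the fold threshold under an alternative.

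Same-numbered libraries did not deviate together, with correlations of -0.07 to 0.12 in 9 pairs, and 2 of 9 libraries correlated best with their own number. A replicate block gave 269, 2713 and 2158 called genes and changed no call among the 7 genes (1, 5 and 5 called). Depth limits ALDH3A1, AHRR in Baituling, CYP1A1 in Baituling and the enzymes with few counts.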
